A study of Arabidopsis thaliana with 16 samples.

Results

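The fermentation and lower glycolysis genes described here are pyruvate decarboxylase PDC2, the lactate dehydrogenase gene AT4G17260, the cytosolic glyceraldehyde-3-phosphate dehydrogenase GAPC2 and the pyruvate kinase genes AT5G63680 and AT5G08570. They were chosen by name, with earlier results of these data known. Each was read by 1 probe set paired with no other gene. The 5 genes are thus 5 of 22746 probe sets tested and 5 of 13355 genes named by such a probe set. Transcript levels were measured on Affymetrix arrays in roots of 14-d-old seedlings of Arabidopsis thaliana, ecotype Columbia, with 4 arrays labelled as biological replicates in each of 4 groups. The comparisons ask which root transcripts change at low oxygen, and whether they change alike in a line with RNA interference against HRE1, an ethylene response factor gene. The groups were wild type under normoxia for 6 h, wild type under hypoxia at 3% oxygen for 6 h, and the HRE1-RNAi line under each of these conditions. Roots stood in liquid medium with sucrose in the dark during hypoxia. Whether normoxic roots were kept the same way is not given here. A part of medium or darkness in the differences below was not tested. The titles name the line HRE1-RNAi20, whereas most descriptions of its samples carry other line numbers, so arrays from 1 line and from several cannot be told apart. The promoter of the RNAi construct is not given in the sources used here. No probe set was paired with HRE1 alone, so its knockdown was not analysed here, and the same holds for ADH1, PDC1 and GAPC1.

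When oxygen is short, plant mitochondria cannot reoxidise NADH, and glycolysis then depends on fermentation to regenerate NAD+. In ethanolic fermentation pyruvate decarboxylase converts pyruvate to acetaldehyde, which alcohol dehydrogenase reduces to ethanol. In lactic fermentation lactate dehydrogenase reduces pyruvate to lactate directly. Upstream, glyceraldehyde-3-phosphate dehydrogenase is the glycolytic step that consumes NAD+, and pyruvate kinase makes ATP and pyruvate in the last step of glycolysis.

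Values are MAS5 intensities on a linear scale, with the same trimmed mean on every array and array medians between 166.3 and 206.5, so they are levels relative to the rest of the array. Changes are differences of log2(intensity + 16) between group means with their standard error (SE). Adjusted p-values come from limma with Benjamini-Hochberg adjustment over all 22746 probe sets, and called here means an adjusted p below 0.05. All tests were two-sided, and the number of arrays limits the precision. Of the root markers listed, 4 of 14 were measured (EXPA7, EXPA18, XTH26 and PYK10). Their summed intensity was 21965.1 to 27114.8 in normoxic and 17321.9 to 23990.1 in hypoxic wild type, 20822.7 to 27888.0 in normoxic HRE1-RNAi roots and 15519.8 to 25518.2 in hypoxic ones. Most of each sum was PYK10, with means of 23652 in normoxic and 21068 in hypoxic wild type, and PYK10 was not called. The root hair genes EXPA7, EXPA18 and XTH26 were called lower under hypoxia in both lines. In wild type their means fell from 463 to 165, from 723 to 273 and from 234 to 28.4. The HRE1-RNAi means fell from 604 to 181, from 817 to 473 and from 260 to 57.0. Of 19 shoot markers, 3 were measured (LHCB4.1, LHCB4.2 and RCA), with sums of 2187.8 to 2401.6, 1148.0 to 1250.3, 2084.6 to 2498.0 and 1130.2 to 1653.0 in the same order of groups. LHCB4.1 and LHCB4.2 were called lower under hypoxia in both lines. No group mean of these markers was at 0. Their part in the results below was not tested. In bulk roots, fewer cells of a type and less RNA per cell cannot be told apart.

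Both fermentation genes rose strongly under hypoxia, GAPC2 rose by about 1.5-fold, and neither pyruvate kinase gene passed the test. In wild type 3 of the 5 genes were called, all higher, where 7.20% of all probe sets were called higher and 17.8% in either direction. In HRE1-RNAi roots the same 3 genes were called higher, against 7.51% called higher and 18.2% in either direction. These shares depend on the scaling. With each array centred on its median, calls in wild type moved from 1637 higher and 2403 lower to 2054 higher and 1755 lower. In HRE1-RNAi they moved from 1708 and 2427 to 2134 and 1702. The 3 rises were called under that scaling too. As the genes were chosen with earlier results of these data known, their share beside that of all probe sets is no test.

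PDC2 (AT5G54960, chromosome 5), the pyruvate decarboxylase gene of the ethanolic branch, had intensities of 985.8, 974.7, 889.1 and 707.9 on wild type normoxia arrays 1 to 4. Under hypoxia the wild type arrays read 4280.0, 4579.5, 4463.2 and 3148.9. Every wild type hypoxia array was above every normoxia array, and array 4 was the lowest in both conditions. In HRE1-RNAi roots PDC2 read 877.7, 1205.9, 1156.9 and 605.8 under normoxia. Under hypoxia it read 4379.9, 4991.2, 4708.2 and 2022.0. The groups did not overlap here either, although array 4 under hypoxia lay far below the other 3. The group means were 889 ± 128 in wild type normoxia, 962 ± 278 in HRE1-RNAi normoxia, 4025 ± 1359 in HRE1-RNAi hypoxia and 4118 ± 658 in wild type hypoxia (SD, n = 4 each). In this order, neighbours of the same oxygen condition did not differ beyond their spread, and the step from normoxia to hypoxia exceeded it. In wild type PDC2 rose by 2.19 ± 0.24 (SE) on the log2 scale, a fold of 4.56 with a 95% interval of 3.20 to 6.49 (limma, adjusted p = 9.742e-07). In HRE1-RNAi roots it rose by 2.01 ± 0.24, a fold of 4.04 with an interval of 2.84 to 5.75 (limma, adjusted p = 2.7e-06). Counted from the largest rise, it stood at place 196 of 22746 probe sets in wild type and at place 283 in HRE1-RNAi roots.

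AT4G17260 (chromosome 4), the lactate dehydrogenase gene, changed most of the 5 genes. Wild type normoxia arrays read 506.1, 524.6, 601.2 and 481.2. Wild type hypoxia arrays read 3615.6, 3401.7, 3556.9 and 3409.6. Even the lowest hypoxia array was far above the highest normoxia array. HRE1-RNAi arrays read 446.1, 536.0, 631.9 and 523.8 under normoxia. They read 3445.4, 3636.7, 3220.6 and 3162.3 under hypoxia, again without overlap and with array 4 close to the others. The group means ran from 528 ± 51.8 in wild type normoxia through 534 ± 76.2 in normoxic and 3366 ± 218 in hypoxic HRE1-RNAi roots to 3496 ± 107 in wild type hypoxia (SD, n = 4 each). Only the step between the oxygen conditions exceeded the spread. The rise was 2.69 ± 0.12 in wild type, a fold of 6.47 with a 95% interval of 5.45 to 7.69 (limma, adjusted p = 4.741e-13). It was 2.63 ± 0.12 in HRE1-RNAi roots, a fold of 6.18 with an interval of 5.20 to 7.34 (limma, adjusted p = 4.056e-13). By size of rise the gene stood at place 107 in wild type and 155 in HRE1-RNAi roots.

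**Figure D1:**
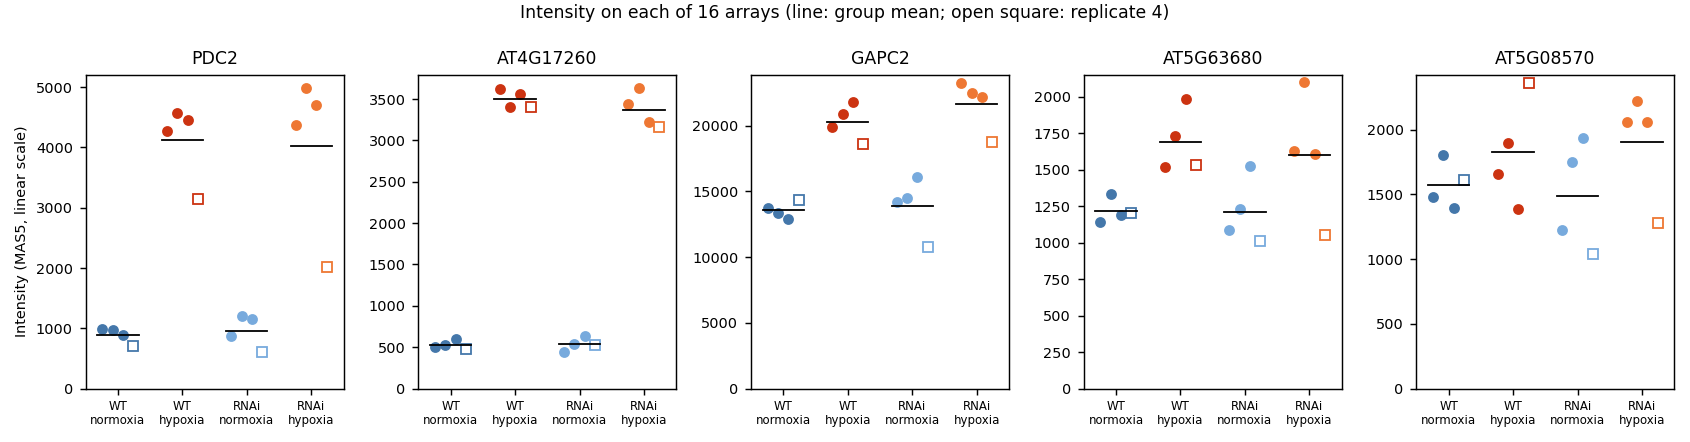
Intensity (linear scale, from 0) of the 5 genes on each of the 16 arrays, with 1 panel per gene and 1 column of points per group; lines are group means and open squares are the arrays numbered 4. PDC2 and AT4G17260 show no overlap between normoxia and hypoxia in either line, and the HRE1-RNAi hypoxia array 4 lies lowest of its group for all 5 genes.

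GAPC2 (AT1G13440, chromosome 1), which encodes the cytosolic NAD+-dependent enzyme, had a smaller rise at a high level. Wild type normoxia arrays read 13692.8, 13382.4, 12885.1 and 14349.7. Wild type hypoxia arrays read 19906.9, 20890.5, 21794.2 and 18568.9, all above the normoxia arrays. HRE1-RNAi roots read 14184.6, 14481.7, 16059.5 and 10797.7 under normoxia. They read 23257.5, 22499.4, 22161.0 and 18728.3 under hypoxia, with no overlap and with array 4 lowest in both conditions. The group means were 13577.5 ± 613 in wild type normoxia, 13881 ± 2214 in HRE1-RNAi normoxia, 20290.1 ± 1382 in wild type hypoxia and 21662 ± 2009 in HRE1-RNAi hypoxia (SD, n = 4 each). The 2 lines differed by less than this spread in either condition. GAPC2 rose by 0.58 ± 0.11 in wild type, a fold of 1.49 with a 95% interval of 1.27 to 1.75 (limma, adjusted p = 0.0006019). The HRE1-RNAi line showed a rise of 0.65 ± 0.11, a fold of 1.57 with an interval of 1.34 to 1.85 (limma, adjusted p = 0.0001487). Signal from near-identical transcripts such as that of GAPC1 cannot be told apart from that of GAPC2 here, since probe sequences were not used.

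The manufacturer's control probe sets for Arabidopsis GAPDH, 5 in number, read GAPDH transcripts with probe sets other than that of GAPC2. In wild type the hypoxia minus normoxia difference of their log2 values was 0.36 to 0.55, and for all 5 every hypoxia array was above every normoxia array. The exact permutation p was 0.0286 for each, the smallest that 70 arrangements of 4 against 4 arrays allow, and 0.114 after adjustment over 20 tests. In HRE1-RNAi roots the difference was 0.25 to 0.51 and the groups overlapped (exact permutation p = 0.17 to 0.40 before adjustment). Without the HRE1-RNAi arrays numbered 4 it was 0.32 to 0.49, with a smallest possible p of 0.1. Between the lines the 5 control probe sets differed by -0.11 to 0.11 under normoxia and by -0.13 to 0.03 under hypoxia. Without the HRE1-RNAi arrays numbered 4 all 5 were higher in HRE1-RNAi roots, by 0.05 to 0.40 and by 0.03 to 0.23, so most signs turned (exact permutation p = 0.0571 or more before adjustment).

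The pyruvate kinase genes were not called in either line. AT5G63680 (chromosome 5) read 1143.2, 1333.8, 1190.1 and 1205.2 in wild type normoxia. It read 1517.6, 1729.8, 1985.5 and 1535.2 in wild type hypoxia. The wild type groups did not overlap, which makes 4 of the 5 genes without overlap in that line, where 22.1% of all probe sets had none and 9.07% had none with hypoxia higher. In HRE1-RNAi roots AT5G63680 read 1085.0, 1230.9, 1528.9 and 1009.0 under normoxia. Under hypoxia it read 1631.2, 2099.4, 1610.2 and 1054.3. Array 4 under hypoxia lay within the normoxia range, so 3 of the 5 genes had no overlap in HRE1-RNAi roots, where 19.5% of all probe sets had none and 7.93% had none with hypoxia higher. Group means were 1213 ± 230 in HRE1-RNAi normoxia, 1218 ± 81.5 in wild type normoxia, 1599 ± 427 in HRE1-RNAi hypoxia and 1692 ± 218 in wild type hypoxia (SD, n = 4 each). The difference was 0.46 ± 0.17 in wild type, a fold of 1.38 with a 95% interval of 1.08 to 1.76 (limma, adjusted p = 0.06396). For HRE1-RNAi it was 0.37 ± 0.17, a fold of 1.29 with an interval of 1.01 to 1.65 (limma, adjusted p = 0.1509). Without both HRE1-RNAi arrays numbered 4, AT5G63680 was called in wild type at 0.46 (limma, adjusted p = 0.009678) and in HRE1-RNAi roots at 0.47 (limma, adjusted p = 0.02529). The wild type value is the same with and without these arrays, since they enter it only through the spread that all groups share.

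AT5G08570 (chromosome 5), the other pyruvate kinase gene, had the widest spread relative to its change. Wild type normoxia arrays read 1477.4, 1808.3, 1398.7 and 1609.0, and wild type hypoxia arrays read 1661.6, 1894.7, 1390.2 and 2360.7. The lowest wild type array of all was a hypoxia array, number 3, and the highest was hypoxia array 4. HRE1-RNAi roots read 1224.8, 1751.8, 1934.7 and 1036.8 under normoxia. They read 2063.0, 2225.6, 2059.6 and 1277.9 under hypoxia, where arrays 1 to 3 were above the normoxia arrays and array 4 was within their range. Group means were 1487 ± 425 in HRE1-RNAi normoxia, 1573 ± 179 in normoxic wild type, 1827 ± 411 in hypoxic wild type and 1907 ± 426 in HRE1-RNAi hypoxia (SD, n = 4 each), and no neighbours in this order differed beyond their spread. The difference was 0.19 ± 0.20 in wild type, a fold of 1.14 with a 95% interval of 0.859 to 1.52 (limma, adjusted p = 0.6038). It was 0.37 ± 0.20 in HRE1-RNAi roots, a fold of 1.29 with an interval of 0.969 to 1.72 (limma, adjusted p = 0.2426). With the HRE1-RNAi hypoxia array 4 left out, the latter was 0.55 and was called (limma, adjusted p = 0.04536), whereas without both arrays numbered 4 it was 0.39 and was not (limma, adjusted p = 0.1288).

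The fermentation genes changed by more than the glycolysis genes, and the lactate dehydrogenase gene by more than PDC2 in wild type. Unequal change was tested for 10 pairs of genes in each line, 20 in all, by exact permutation with Benjamini-Hochberg adjustment over the 20. These tests share genes and arrays, and an adjusted p below 0.05 needs many of them to reach the smallest possible p. Whether probe sets at such different levels respond alike was not tested. In wild type the rise of PDC2 exceeded that of GAPC2 by 1.61, that of AT5G63680 by 1.72 and that of AT5G08570 by 1.99 on the log2 scale. The rise of AT4G17260 exceeded those of the same 3 genes by 2.12, 2.23 and 2.50. In HRE1-RNAi roots the corresponding differences were 1.36, 1.64 and 1.65 for PDC2 and 1.98, 2.26 and 2.26 for AT4G17260. Each of these 12 differences had an exact permutation p of 0.0286, the smallest possible, and an adjusted value of 0.044. PDC2 minus AT4G17260 was -0.51 ± 0.16 (SE) in wild type, at the same exact and adjusted p. The same pair gave in HRE1-RNAi roots -0.61 ± 0.34 (exact permutation p = 0.114, adjusted 0.143), and -0.54 without the arrays numbered 4.

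Among the 3 glycolysis genes no pair differed in its change at this number of arrays. GAPC2 minus AT5G63680 was 0.11 in wild type and 0.28 in HRE1-RNAi roots (exact permutation, adjusted p = 0.168 and 0.143). GAPC2 minus AT5G08570 was 0.38 and 0.28 (exact permutation, adjusted p = 0.143 and 0.222). The pyruvate kinase genes differed by 0.27 in wild type (exact permutation, adjusted p = 0.331).

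Whether the HRE1-RNAi line differed from wild type was asked under normoxia, under hypoxia and for the response itself. None of the 5 genes was called in these 3 comparisons. Few probe sets were called at all by limma. There were 6 calls or 0.0264% under normoxia, with 987 probe sets at an unadjusted p below 0.05. There were 5 calls or 0.0220% under hypoxia, with 1036 such probe sets. The difference of the responses gave 4 calls or 0.0176%, with 770. No gene of the 5 separated the lines without overlap, against 3.04% of all probe sets under normoxia and 2.57% under hypoxia.

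HRE1-RNAi minus wild type under normoxia was 0.07 ± 0.24 (SE) for PDC2, 0.01 ± 0.12 for AT4G17260, 0.02 ± 0.11 for GAPC2, -0.02 ± 0.17 for AT5G63680 and -0.12 ± 0.20 for AT5G08570 (limma, adjusted p = 0.9998 for each). As folds, the 95% intervals were 0.738 to 1.50 for PDC2 and 0.848 to 1.20 for AT4G17260, so the data leave room for a change of PDC2 by up to 1.50-fold. Under hypoxia the differences were -0.10 ± 0.24, -0.06 ± 0.12, 0.09 ± 0.11, -0.11 ± 0.17 and 0.06 ± 0.20 in the same order of genes. The fold intervals were 0.655 to 1.33 for PDC2, 0.809 to 1.14 for AT4G17260, 0.906 to 1.25 for GAPC2, 0.724 to 1.18 for AT5G63680 and 0.781 to 1.38 for AT5G08570. These 2 line comparisons share arrays with the hypoxia comparisons. Without both HRE1-RNAi arrays numbered 4, PDC2 was 0.27 above wild type under normoxia and 0.20 above it under hypoxia, so its sign under hypoxia turned, and it was not called.

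The response in HRE1-RNAi roots minus that in wild type was -0.17 ± 0.35 (SE) for PDC2 and -0.07 ± 0.17 for AT4G17260 (limma, adjusted p = 0.9998). For PDC2 the value was -0.07 without both HRE1-RNAi arrays numbered 4, and its sign turned, to 0.13, without the hypoxia array 4 alone; without the normoxia array 4 alone it was -0.37. None of these was called. As a ratio of folds the intervals were 0.537 to 1.46 for PDC2, 0.748 to 1.22 for AT4G17260 and 0.837 to 1.32 for GAPC2. GAPC2 differed by 0.07 ± 0.16, AT5G63680 by -0.09 ± 0.24 and AT5G08570 by 0.17 ± 0.28. All 5 intervals include no difference between the lines. Among the 3 genes called under hypoxia, the interval was widest for PDC2.

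**Figure D2:**
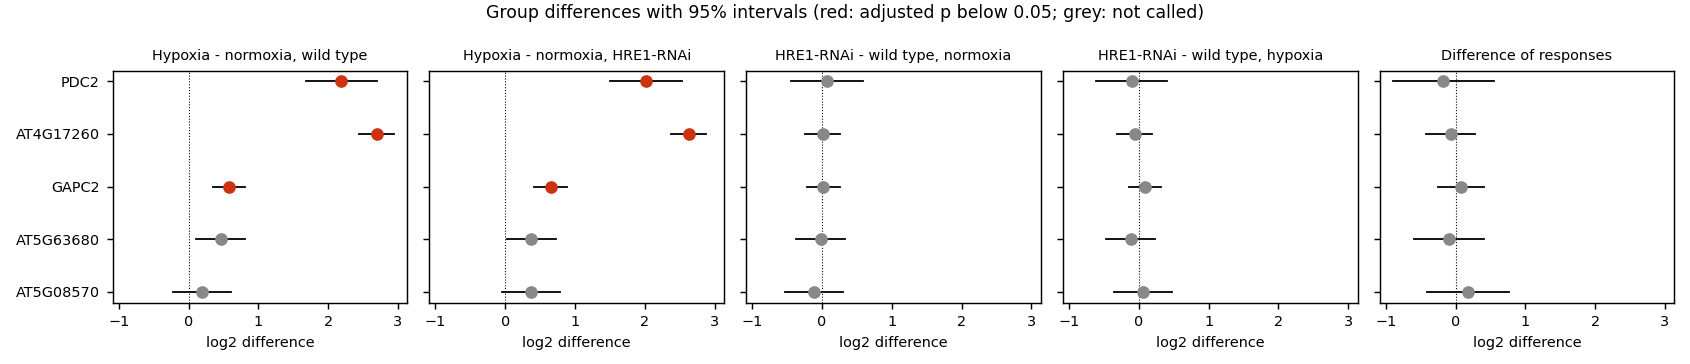
Differences of log2(intensity + 16) with 95% intervals for the 5 genes, with 1 panel per comparison; red marks an adjusted p below 0.05 and grey a gene not called. PDC2, AT4G17260 and GAPC2 are called in both hypoxia comparisons, and every interval of the line comparisons and of the difference of responses includes 0.

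The HRE1-RNAi arrays numbered 4 read low for these genes. On the normoxia array 4 PDC2 deviated from the mean of the other 3 arrays by -0.80 on the log2 scale, and 3.2% of the 11373 brighter probe sets read as low or lower. On the hypoxia array 4 it deviated by -1.21, which 0.396% of them reached. AT4G17260 deviated by -0.02 and -0.12 on these arrays, at places that 46.1% and 37.7% of the brighter probe sets reached. The 2 fermentation genes thus differed in how far they departed on the same arrays. On the hypoxia array 4, the deviation was -0.27 for GAPC2, -0.74 for AT5G63680 and -0.72 for AT5G08570. Of the brighter probe sets 47.9% on the normoxia array and 48.8% on the hypoxia array lay below the mean of the other 3.

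Over 6 pairs of control probe sets the mean log2 difference between 3′ and 5′ ends was 1.32 and 1.35 on these 2 arrays. On the other 14 arrays it lay between 0.93 and 1.20. A larger difference means relatively less signal toward the 5′ end of the control transcripts. The part of this measure in the low readings was not tested. PDC2 was also lowest on array 4 in both wild type groups, where the 3′ minus 5′ difference of array 4 was 0.93 and 1.14.

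**Figure D3:**
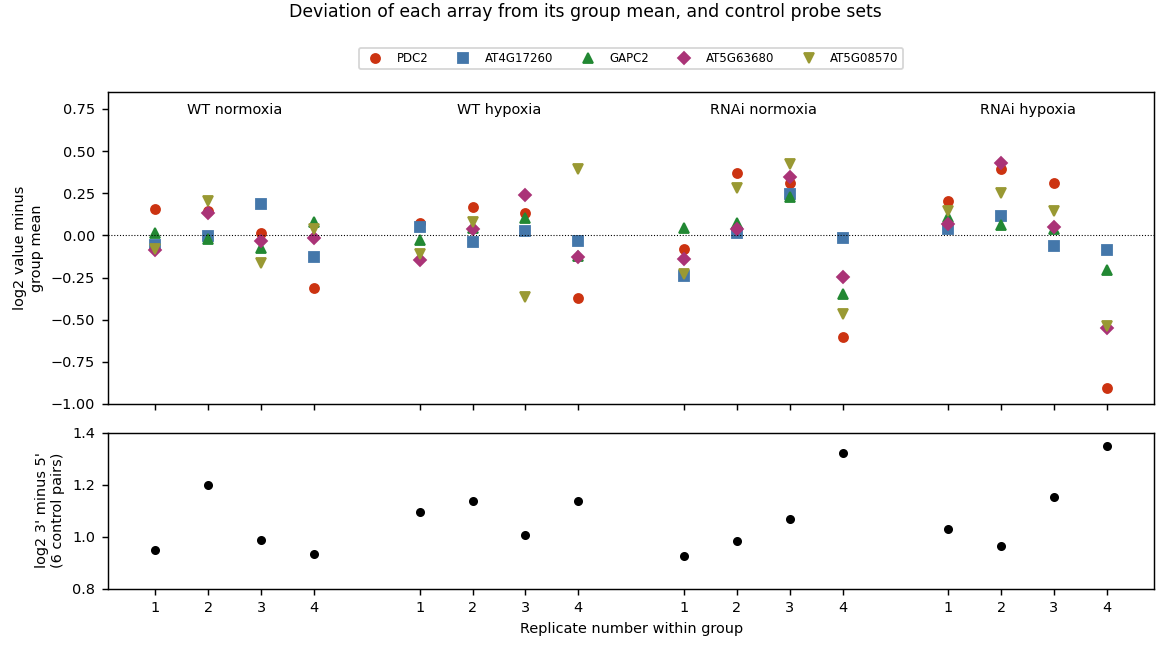
Top, deviation of each array's log2 value from its group mean for the 5 genes; bottom, mean log2 difference between 3′ and 5′ control probe sets by replicate number within each group. The HRE1-RNAi arrays numbered 4 have the highest 3′ minus 5′ differences, 1.32 and 1.35, and PDC2 has its largest deviations there.

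With both directions counted together, the other measured genes of glycolysis and fermentation were called under hypoxia about as often as probe sets in general. Their few calls were more often higher than lower, whereas those of all probe sets were more often lower. Of 86 further loci in the list of the pathway, 20 were measured by a probe set paired with 1 gene. Hypoxia raised 3 of them in wild type and lowered 1, while 16 had no call, and the median was -0.17 beside -0.06 for all probe sets. HRE1-RNAi roots had 4 higher, 1 lower and 15 without a call, and the median was 0.19 beside -0.06. The 4 calls of 20 in wild type stand beside 17.8% of all probe sets called (7.20% higher, 10.6% lower), and the 5 of 20 in HRE1-RNAi roots beside 18.2% (7.51% higher, 10.7% lower). None was called in the line comparisons or in the difference of responses, where medians were -0.04, 0.08 and 0.17.

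The calls lay in 3 classes of the list. Of 5 loci in the list's fructokinase class, which phosphorylates fructose, 2 rose and 1 fell in each line. The loci without a call, AT1G06020 and AT4G10260, had group means between 6.33 and 26.1, far below the array medians, so a missing call says little there. AT2G31390 read 4094.8 to 4924.3 in wild type normoxia and 12020.6 to 14735.3 in wild type hypoxia, a rise of 1.54 ± 0.16 (limma, adjusted p = 2.071e-07). Its HRE1-RNAi arrays went from 3291.6 to 6888.9 up to 10142.6 to 13353.5, a rise of 1.45 ± 0.16 (limma, adjusted p = 4.662e-07). Neither pair of groups overlapped for this locus. AT5G51830 rose from 347.3 to 447.6 up to 999.1 to 1225.3 in wild type, by 1.43 ± 0.22 (limma, adjusted p = 4.106e-05). The HRE1-RNAi rise was 1.46 ± 0.22 (limma, adjusted p = 2.734e-05), from 239.7 to 481.4 up to 559.3 to 1320.8. AT3G59480 of the same class went the other way, from 340.8 to 557.7 down to 79.3 to 160.2 in wild type, and fell by 1.89 ± 0.25 (limma, adjusted p = 4.094e-06). In HRE1-RNAi roots it fell by 1.70 ± 0.25 (limma, adjusted p = 1.588e-05), from 227.8 to 509.2 down to 78.2 to 160.9.

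ALDH2C4, an aldehyde dehydrogenase gene, rose from 2510.1 to 3054.0 up to 4068.7 to 5466.3 in wild type, by 0.77 ± 0.13 (limma, adjusted p = 0.0001259). In HRE1-RNAi roots it rose by 0.78 ± 0.13, from 2687.0 to 2974.2 up to 3660.4 to 5500.9 (limma, adjusted p = 0.0001053). These 4 loci were called in both lines under all 27 alternative settings and omissions of arrays. PPDK, the pyruvate phosphate dikinase gene, interconverts pyruvate and phosphoenolpyruvate. It rose in HRE1-RNAi roots by 0.66 ± 0.23 (limma, adjusted p = 0.04602), from 63.9 to 97.1 up to 86.7 to 185.9, with the groups overlapping. That call was lost in 11 of 16 omissions of 1 array, and without both HRE1-RNAi arrays numbered 4 the value was 0.60 (limma, adjusted p = 0.1217). In wild type PPDK differed by 0.49 ± 0.23 (limma, adjusted p = 0.1621).

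In the main fit, the measured loci of steps between these classes and the members gave no call, but enolase was close to the threshold. Glucose-6-phosphate isomerase, triose-phosphate isomerase, phosphoglycerate kinase and enolase were each read by 1 locus. Only 20 of the 86 listed loci were measured, so other isoforms and steps are not covered. The enolase gene ENOC differed by -0.56 ± 0.20 in wild type (limma, adjusted p = 0.05106) and by -0.25 ± 0.20 in HRE1-RNAi roots (limma, adjusted p = 0.472). It was called lower in wild type in 12 of 27 alternatives, among them the fit without both HRE1-RNAi arrays numbered 4 (limma, adjusted p = 0.01391), and in none in HRE1-RNAi roots. The 3 loci of the pyrophosphate-dependent phosphofructokinase class differed by -0.24 to -0.05 in wild type and by 0.06 to 0.26 in HRE1-RNAi roots. The 5 further pyruvate kinase loci differed by -0.36 to 0.25 and by -0.53 to 0.35. With AT5G63680 and AT5G08570 they make 7 measured loci of that class without a call in either line. However, AT3G04050, AT4G26390 and AT3G25960 had group means between 8.2 and 34.3, far below the array medians of 166.3 to 206.5. AT3G49160, at 81.9 to 99.3, was below them too. At such low levels a missing call says little.

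**Figure D4:**
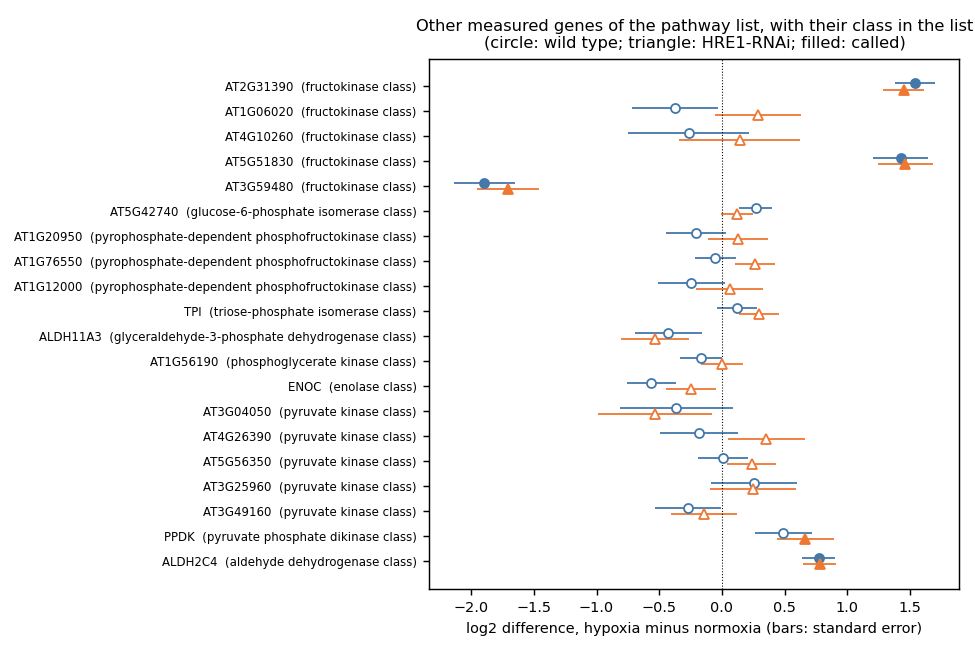
Hypoxia minus normoxia differences of log2(intensity + 16), with standard errors, for the 20 other measured genes of the pathway list, each with its class; circles are wild type, triangles HRE1-RNAi, and filled symbols are called. AT2G31390, AT5G51830 and ALDH2C4 are called higher and AT3G59480 lower in both lines, whereas no pyruvate kinase locus is called. The pyruvate kinase loci AT3G04050, AT4G26390 and AT3G25960 are dim, as are the fructokinase loci AT1G06020 and AT4G10260.

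Pyruvate that is not fermented enters mitochondria, where the pyruvate dehydrogenase complex feeds the citric acid cycle. Of 28 loci in the list of that complex and the cycle, 13 were measured, and 1 was called higher and none lower by limma in each line. That is near the share of all probe sets called higher, 7.20% and 7.51%. The medians were 0.10 in wild type and 0.26 in HRE1-RNAi roots, beside -0.06 over all probe sets in each. The called gene was MAB1, which encodes the beta subunit of pyruvate dehydrogenase E1. Its mean intensity was 2722 ± 172 in normoxic and 3879 ± 297 in hypoxic wild type (SD, n = 4), a rise of 0.51 ± 0.15 (limma, adjusted p = 0.02344). In HRE1-RNAi roots the means were 2732 ± 349 and 3970.4 ± 984, also a rise of 0.51 ± 0.15 (limma, adjusted p = 0.02315). The call was lost in 4 of 16 omissions of 1 array in wild type and in 5 of 16 in HRE1-RNAi roots.

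Likeness of pattern was measured as the root mean square difference of log2 values over the 16 arrays, each probe set centred on its own mean, among 6061 brighter probe sets with 1 gene. The measure takes in deviations of single arrays as well as differences between groups. For PDC2 the most alike were AT1G66180 at 0.27, the peroxidase gene Prx37 at 0.30 and AT3G11930 at 0.31, where the median candidate was at 1.16 and AT4G17260 at 0.43. For AT4G17260 they were NANA and AT2G27660, both at 0.19, and AT3G27220 at 0.23, with a median of 1.38. The distance of 0.43 between the fermentation genes was well below both medians. The named genes have the smallest of 6061 distances, so their lying nearer is no sign that the fermentation genes are unlike. For GAPC2 they were GSA1 at 0.11 and AT3G27570 and AT2G44525 at 0.13, with a median of 0.45. AT5G63680 stood at 0.20 from GAPC2 and AT5G08570 at 0.29. For AT5G63680 the most alike were MAB1 at 0.11, AT3G44190 at 0.12 and AT5G19440 at 0.14, with a median of 0.43. For AT5G08570 they were AT4G35850 at 0.09, AT5G08300 at 0.11 and SDH1-1, a succinate dehydrogenase gene, at 0.13, with a median of 0.44. The pyruvate kinase genes stood at 0.25 from each other, below the medians of 0.43 and 0.44.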

How the data were processed

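RNA from seedling roots was hybridised to 16 one-colour arrays. Each deposited value is a linear intensity of 1 probe set on 1 array, made with MAS5 per the submitters' processing notes, which give no version. The mean with 2% trimmed from each tail is the same on every array. Of 22810 probe sets, 64 controls were left out of the fit. The probe table pairs 13513 with 1 gene, 503 with several and 8730 with none, and for 13436 the single gene was found in the reference gene table. Groups follow the sample titles. With limma 3.58.1 in R 4.3.3, group means of log2(intensity + 16) were fitted over all 16 arrays (trend and robust moderation) for 5 contrasts. P-values were adjusted by Benjamini-Hochberg over 22746 probe sets. The fit was tested on simulated data. Pairs of genes and control probe sets were compared by exact permutation over arrays. The pseudocount of 16 understates changes of dim probe sets.

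Named are the members, the pathway genes called in a hypoxia contrast, with counts for the rest, the 3 genes most like each member and the GAPDH controls. ENOC, MAB1 and the class ranges were added after their values were seen. The members, lists and tests were chosen with earlier results of these data known. Each listed gene is read by its brightest probe set. Tried as alternatives were quantile normalization, centring on the median, pseudocounts of 1 and 64, a fit without the dimmest 40%, a replicate block (fixed, random), a fit of only the groups compared, plain moderation, array weights, an adjusted p below 0.01 and omitting arrays. No genome build is named in the sources used here, so no coordinates or sequences are given.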

Additional observations from a re-analysis of the deposited data

Results flagged for a closer look

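In groups of 4 arrays, a lowest or highest array was marked where its gap to the nearest other exceeded 0.829 of the group's range on the log2 scale (Dixon's 95% value). Of 60 groups tested for the members, the GAPDH controls and the called pathway genes, 8 were marked, where chance marks about 1 in 20. Of these, 6 lay on the HRE1-RNAi hypoxia array 4, the array with the largest 3′ minus 5′ difference, and all 6 were low: PDC2 at 2022.0, AT5G08570 at 1277.9, AT2G31390 at 10142.6, AT5G51830 at 559.3, and the GAPDH control probe sets GAPDH_M at 6313.3 and the r2 GAPDH-5 at 7388.6. They are measurements of 1 array and not independent of each other. The r2 GAPDH-5 control was high on wild type normoxia array 1, at 10499.8. ALDH2C4 was high on HRE1-RNAi normoxia array 3, at 2974.2.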

How the results depend on the processing

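Over 27 alternatives for each hypoxia comparison, PDC2, AT4G17260 and GAPC2 were called higher in both lines every time, at log2 values of 2.08 to 2.31, 2.59 to 2.78 and 0.50 to 0.67 in wild type and 1.81 to 2.32, 2.53 to 2.74 and 0.54 to 0.76 in HRE1-RNAi roots. AT5G63680 passed the test in wild type at 0.46 without the dimmest 40% (limma, adjusted p = 0.04977), at 0.46 with the fixed replicate block (0.02482), at 0.46 with only the groups compared (0.0105), at 0.44 with array weights (0.01948) and at 0.46 without both HRE1-RNAi arrays numbered 4 (0.009678). Omitting 1 array at a time gave 0.38 to 0.51, and it passed without HRE1-RNAi normoxia array 3 or 4 or hypoxia array 2 or 4. In HRE1-RNAi roots it passed with array weights at 0.47 (0.01536) and without both arrays numbered 4 at 0.47 (0.02529). Single omissions gave 0.23 to 0.55, passing without hypoxia array 4. AT5G08570 ranged from 0.21 to 0.55 there, passing without that same array. The wild type count of pathway genes called lower was 2 in place of 1 with the pseudocount of 64, without the dimmest 40%, with the fixed or random replicate block, with only the groups compared, with array weights and without both arrays numbered 4. The gene added was ENOC, at an adjusted p of 0.0312 with the fixed replicate block. The count was 1 to 2 over single omissions in each line. In HRE1-RNAi roots it was 2 only without the normoxia array 4, and the gene added there was not ENOC. Of the unequal changes, none crossed the threshold with another pseudocount or quantile normalization. No value that had been called turned its sign. Line comparisons of the members were not called under any alternative. Over all probe sets these comparisons gave 5 higher and 12 lower calls under normoxia, and 13 and 6 under hypoxia, without the arrays numbered 4, in place of 1 and 5, and 3 and 2. With array weights they gave 2 and 16 under normoxia. The causes were not tested. Same-numbered arrays deviated together only in part (correlations of deviations 0.013 to 0.142 in wild type, 0.023 to 0.418 in HRE1-RNAi). In wild type numbers 2, 3 and 4 gave 0.072, 0.121 and 0.142, against at most 0.01 with another number. Number 1 did not stand out. In HRE1-RNAi only number 4 did, at 0.418 against 0.003. The numbers were not taken as pairing in the main fit, and a shared batch was not tested. The fixed block lowered the SE of PDC2 from 0.24 to 0.14 in each line, and PDC2 stayed called. Of the members, only AT5G63680 in wild type had its call moved by a block, the fixed one. The standard errors at 4 arrays a group, 0.17 for AT5G63680 and 0.20 for AT5G08570, limit what could be called for the pyruvate kinase genes.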
